A study of Ovis aries with 9 samples.

Results

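The 9 genes described here belong to a glucose-responsive circuit. They are TXNIP, the α-arrestin genes ARRDC1, ARRDC2, ARRDC3 and ARRDC4, the transcription factor genes MLX, MLXIP (which encodes MondoA) and MLXIPL (which encodes ChREBP), and TXN, the gene of thioredoxin. Members were chosen by symbol from the gene table of an RNA-seq study of ovine granulosa cells (GCs). Each of the 9 symbols had 1 row, among 39157 genes in the table.

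GCs line the ovarian follicle and surround the oocyte. They were collected from follicles of 3 to 5 mm in ovaries of thin-tailed Han ewes at least 1 year old, and the follicle contents of many ovaries were pooled before culture. All cultures were first held for 8 h without glucose and without serum. The GCs then received medium with 0 mM glucose (CON), 8.4 mM glucose (LOW) or 33.6 mM glucose (HIGH) for 24 h, and 3 libraries were sequenced per group. CON cells therefore stayed without added glucose after the starvation step, while LOW and HIGH cells were refed, and the comparisons ask how transcript levels differed with glucose supply. Because cells were pooled across ewes and no source states that the libraries came from separate animals, p-values measure only the spread between these libraries, which may be technical. Levels are from whole cultures, in which fewer cells of a type and less RNA per cell cannot be told apart.

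MondoA and ChREBP are related transcription factors that bind DNA together with their shared partner MLX. When glucose enters the cell and is phosphorylated, the resulting sugar phosphates allow the complex to activate genes, of which TXNIP and its relative ARRDC4 are the best known direct targets. TXNIP binds thioredoxin, the small redox protein that reduces disulfide bonds, and it also promotes the removal of glucose transporters from the cell surface, so that its induction by sugar limits further uptake. The ARRDC proteins share the arrestin fold and act as adaptors that link membrane proteins to NEDD4-type ubiquitin ligases and the sorting machinery of endosomes.

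Levels are given as FPKM (fragments counted on a gene, divided by its length and by the size of the library), scaled so that the named genes had the same median in every library, which makes them comparable per length between genes and between libraries. For the genes checked, which had a single transcript, the deposited counts equalled FPKM times genomic span times a library constant, within 3%. This constant was 48.0 to 71.3 fragments per kb and FPKM, so the counts were not independent of the FPKM. Whether the length behind the FPKM was transcript length or genomic span was not settled, which bears on comparisons between genes and not between libraries. A gene was called when the limma fit over all 24365 genes tested gave a Benjamini-Hochberg adjusted p under 0.05 with a log2 fold change beyond 1 in either direction. Fold changes are ratios of scaled FPKM + 0.1. Of 16 granulosa markers looked for, 12 were in the table and 8 reached 1 FPKM in every library, led by CYP11A1, the first enzyme of steroid synthesis, at 141 to 190 FPKM. The defining genes FSHR, the receptor for follicle-stimulating hormone, and CYP19, the aromatase gene, lay at 0.225 to 0.542 and at most 0.0252 FPKM. The summed granulosa markers were 283 to 290 FPKM across CON, 258 to 277 across LOW and 227 to 267 across HIGH, and 11 stromal and smooth muscle markers, of which LUM and TAGLN were the most abundant, summed to 4882 to 6503, 5560 to 5945 and 4862 to 6132 FPKM in the same order. In HIGH, 3 of the 12 granulosa markers (INHA, CYP11A1 and STAR) lay below all CON and LOW libraries, and 4 of the 11 stromal markers (COL1A1, COL1A2, COL3A1 and PDGFRA) lay above them. Of all genes tested, 6.12% lay below LOW without overlap in HIGH and 3.63% below CON, and 12.5% and 5.81% lay above. These shares are for each comparison alone, and the share of all genes beyond both CON and LOW was not counted. GATA4, a granulosa marker, was 5.10 to 10.1 FPKM across HIGH, above the 3.99 to 4.63 across LOW but overlapping CON. TAGLN averaged 1490 FPKM in HIGH and 2000 in CON, with overlapping groups. COL1A1, a collagen gene, was 15.1 to 32.0 FPKM across CON, 23.1 to 27.6 across LOW and 38.6 to 130.5 across HIGH. What part the makeup of the cultures had in the members' levels was not tested. Of 6 endothelial markers, PECAM1, CDH5, VWF, KDR and EMCN were under 0.1 FPKM in every library and TEK was 0.4996 to 0.992 FPKM. Of 7 leukocyte markers, 2 reached 1 FPKM in every library, CD68 at 7.66 to 12.55 FPKM and CD14 at 6.26 to 7.605 FPKM. The epithelial markers KRT8, at 5.71 to 16.8 FPKM, and CDH1, at 1.99 to 3.335 FPKM, also did so.

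The members spanned a wide range of abundance in these cells. Averaged over the 9 libraries, TXN was the most abundant at 903 FPKM, followed by TXNIP at 169.8 FPKM. ARRDC4 averaged 27.7 FPKM, MLX 19.4, ARRDC3 16.1 and MLXIP 13.9. ARRDC2 and ARRDC1 were lower, at 6.06 and 5.98 FPKM, and MLXIPL was near the bottom of the measurable range at 0.174 FPKM. ARRDC5, a further α-arrestin gene that is not a member, was at most 0.0414 FPKM in any library and was not tested. TXN was above TXNIP, TXNIP above ARRDC4 and ARRDC1 above MLXIPL in all 9 libraries, with ranges that did not overlap, whereas the ranges of the other neighbours in this order overlapped. The transcript of MondoA was 29.3 to 178 times as abundant per length as that of ChREBP in the same library.

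TXNIP was higher in every culture that received glucose. Its level in CON was 69.5, 88.4 and 98.8 FPKM. In LOW it was 212, 223 and 229 FPKM, and in HIGH it was 185, 207.5 and 215 FPKM. The lowest refed library, HIGH replicate 1, was well above the highest CON library, and both refed groups stood clear of CON. TXNIP rose 2.61-fold in LOW compared with CON (95% interval 2.09 to 3.25; log2 fold change 1.38 ± 0.141, SE, n = 3 per group; limma adjusted p = 0.0274). It was 1 of 3 genes called in CON versus LOW, or 0.0123% of those tested, and all 3 were higher in LOW. In HIGH its level was 2.39-fold that of CON (1.92 to 2.98), but the limma adjusted p of 0.0559 did not pass the threshold, which 2 genes (0.00821%) did. With LOW and HIGH averaged against CON, TXNIP rose 2.50-fold (2.06 to 3.02; log2 fold change 1.32 ± 0.122, SE; limma adjusted p = 0.0119). It ranked 3 of 24365 genes by p in this contrast, which called 5 genes (0.0205%), all higher with glucose. Both contrasts against CON share the same 3 CON libraries. An exact two-sided permutation test of the 6 glucose libraries against the 3 CON libraries gave p = 0.0119, the smallest value that the 84 possible splits allow, while 3 against 3 cannot go below 0.1.

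The call of TXNIP depended on single libraries through its adjusted p and not through its size. Leaving out each library in turn kept the log2 fold change of glucose versus CON between 1.18 and 1.43, but the call was lost without CON replicate 2 (limma adjusted p = 0.124), LOW replicate 1 (0.0708), LOW replicate 2 (0.0585), LOW replicate 3 (0.0895) or HIGH replicate 2 (0.066). In CON versus LOW the call stood without CON replicate 1 or CON replicate 3 and was lost without any one of the other 7 libraries, at adjusted p from 0.0577 to 0.336. HIGH versus CON passed without CON replicate 1 (0.0291) or CON replicate 3 (0.0153). The CON versus LOW call was also lost with no filter on low values (limma adjusted p = 0.0755), with only those 2 groups in the fit (0.195) and with edgeR on the estimated counts (0.264), which also lost glucose versus CON (0.203), whereas DESeq2 on the same counts gave 1.17e-09 and 3.53e-11 and called 0.685% and 0.542% of all genes.

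**Figure D1:**
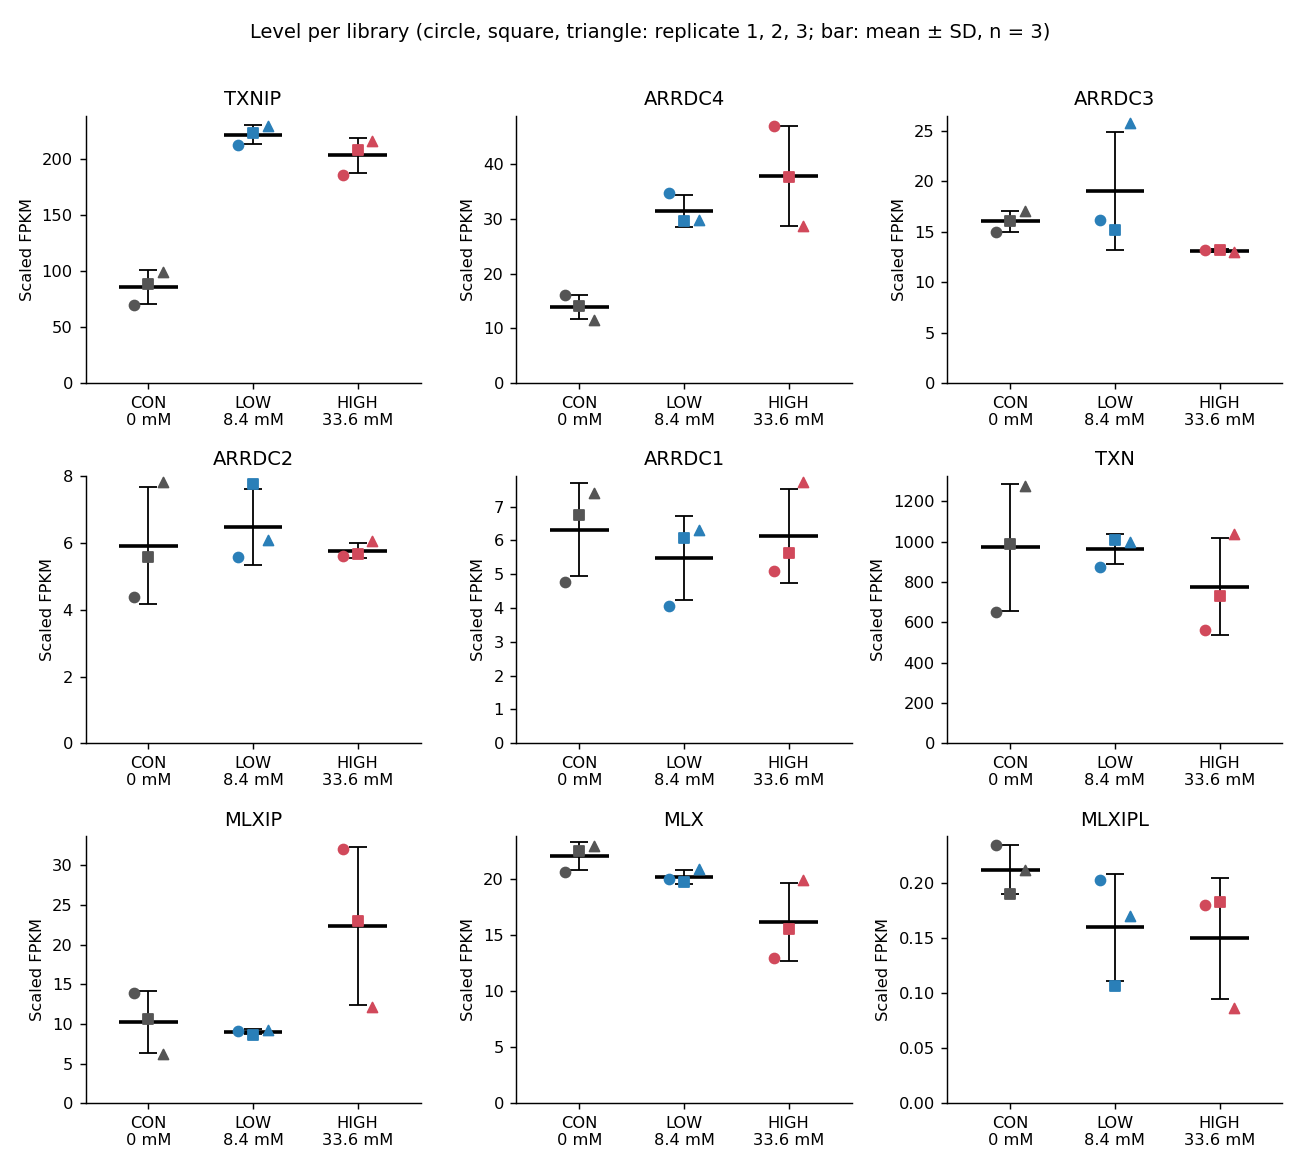
Scaled FPKM (vertical axes, each from 0) of the 9 members in each library of CON, LOW and HIGH; symbols mark replicates and black bars the mean ± SD of 3 libraries. All 6 glucose libraries lie above all 3 CON libraries for TXNIP (185 to 229 against 69.5 to 98.8) and ARRDC4 (28.7 to 47.0 against 11.6 to 16.1), and for no other member.

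ARRDC4, a paralogue of TXNIP, was also separated between refed and glucose-free cultures. CON libraries held 16.1, 14.0 and 11.6 FPKM of ARRDC4. LOW libraries held 34.8, 29.6 and 29.8 FPKM, and HIGH libraries 47.0, 37.7 and 28.7 FPKM. The lowest refed value was above the highest CON value, and the HIGH libraries differed among themselves more than the CON or LOW libraries did. The estimated ratio to CON was 2.26-fold in LOW (95% interval 1.68 to 3.04; limma adjusted p = 0.677) and 2.68-fold in HIGH (1.99 to 3.60; adjusted p = 0.129), so neither contrast passed. For both glucose groups together the ratio was 2.46-fold (1.91 to 3.18; log2 fold change 1.30 ± 0.164, SE; limma adjusted p = 0.0831), rank 6 of 24365 genes by p. The exact two-sided permutation test of 6 against 3 libraries gave p = 0.0119, again the smallest possible. Without HIGH replicate 3, the lowest of its group, ARRDC4 passed in HIGH versus CON (limma adjusted p = 0.0479) and in glucose versus CON (0.0331).

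Groups did not overlap in the higher direction for 2 of the 9 members in glucose versus CON, against 0.788% of all genes tested, and these were TXNIP and ARRDC4. The members were chosen with earlier results of these data known, so this count is a description and not a test. The ratio of TXNIP to ARRDC4 within a library was 4.32 to 8.52 across CON, 6.10 to 7.67 across LOW and 3.95 to 7.50 across HIGH, overlapping throughout. Between the refed groups neither gene passed the test. TXNIP in HIGH was 0.916 times that in LOW (95% interval 0.735 to 1.14; limma adjusted p = 0.747), and ARRDC4 in HIGH was 1.18 times that in LOW (0.880 to 1.59; adjusted p = 0.674). In this fit an increase of TXNIP by more than 1.14-fold from 8.4 to 33.6 mM glucose lies outside the interval, whereas for ARRDC4 the interval reaches 1.59-fold. Neither interval takes differences in library makeup into account. With the share of small RNA genes as a covariate, the log2 fold changes of TXNIP and ARRDC4 were 0.073 and −0.15, in place of −0.13 and 0.24.

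**Figure D2:**
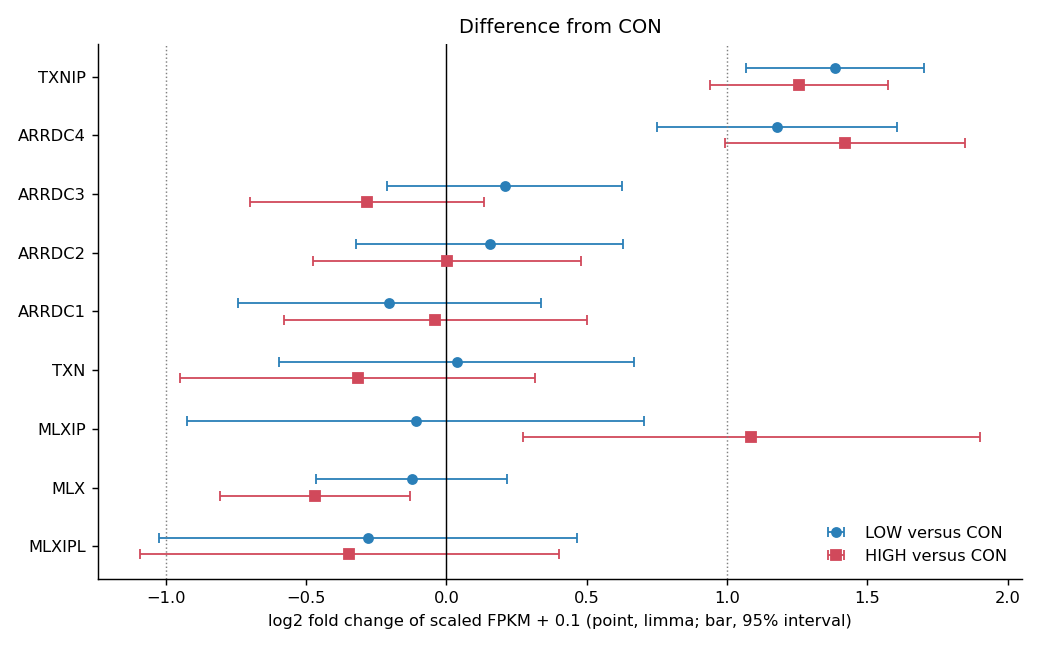
Log2 fold change of each member (horizontal axis, scaled FPKM + 0.1) in LOW versus CON (circles) and HIGH versus CON (squares), with 95% intervals from the limma fit; dotted lines mark −1 and 1. TXNIP (1.38 and 1.26) and ARRDC4 (1.18 and 1.42) have intervals above 0 in both comparisons, MLXIP (1.09) has one above 0 and MLX (−0.47) one below 0 in HIGH only.

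No comparison of ARRDC1, ARRDC2 or ARRDC3 passed the test. ARRDC3, an adaptor known for the downregulation of adrenergic receptors and integrins, measured 15.0, 16.0 and 17.0 FPKM in CON. Its LOW libraries gave 16.2, 15.2 and 25.8 FPKM, and its HIGH libraries were close together at 13.2, 13.2 and 13.0 FPKM. All 3 HIGH values were below all CON and LOW values, and LOW replicate 3 stood alone at the top. ARRDC3 in HIGH was 0.711 times that in LOW (95% interval 0.533 to 0.951; unadjusted p = 0.026, limma adjusted p = 0.589) and 0.822 times that in CON (0.615 to 1.10; adjusted p = 0.655), and neither passed. Without LOW replicate 3 the log2 fold change of HIGH versus LOW was −0.25 in place of −0.49. DESeq2 gave −0.52 with an adjusted p of 0.0146, short of the fold needed for a call. Of all genes tested, 3.63% lay lower without overlap in HIGH than in CON and 6.12% lower than in LOW. In the transcript table the high LOW replicate 3 value lay in the annotated transcript of ARRDC3, at 22.5 FPKM against 11.7 and 11.2 in the other LOW libraries, while an assembled transcript of the same locus was level at 2.68 to 2.73.

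ARRDC1, which acts in budding of vesicles from the plasma membrane, ranged from 4.78 to 7.41 FPKM across CON, 4.07 to 6.31 across LOW and 5.09 to 7.71 across HIGH. ARRDC2 ranged from 4.38 to 7.82 FPKM across CON, 5.59 to 7.76 across LOW and 5.61 to 6.05 across HIGH. The groups of both genes overlapped in every comparison. For glucose versus CON the 95% intervals were 0.665 to 1.27-fold for ARRDC1 and 0.793 to 1.40-fold for ARRDC2 (limma adjusted p = 0.942 and 0.952), so changes of the size seen for TXNIP lie outside them.

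The makeup of the α-arrestin transcripts differed between refed and glucose-free cultures. TXNIP supplied 63.3%, 67.6% and 69.25% of the summed FPKM of the 5 α-arrestins among the members in CON. It supplied 77.8%, 79.2% and 77.1% in LOW and 72.3%, 76.95% and 79.5% in HIGH, above CON in 6 of 6 libraries (exact two-sided permutation p = 0.0119). ARRDC4 contributed 8.13% to 14.7% across CON, 10.1% to 12.7% across LOW and 10.6% to 18.3% across HIGH, with overlapping groups. ARRDC4 was 0.681 to 1.07 times as abundant as ARRDC3 in CON, 1.16 to 2.15 times in LOW and 2.21 to 3.55 times in HIGH, so that the 3 groups did not overlap (exact two-sided permutation p = 0.0119 for glucose versus CON). The TXNIP share and this ratio contain TXNIP or ARRDC4, so their p-values restate the separation of those genes and add no independent support.

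No comparison of TXN passed the test, while the ratio of TXN to TXNIP transcript was lower in every refed library than in CON. TXN measured 649, 989 and 1277 FPKM in CON, 876, 1010 and 999 in LOW, and 562, 730.5 and 1035 in HIGH. The groups overlapped in every comparison, and the 95% interval for glucose versus CON ran from 0.621 to 1.33-fold (limma adjusted p = 0.942). Each unit of TXNIP transcript was matched by 9.34, 11.2 and 12.9 units of TXN in CON. In the LOW libraries the ratio was 4.13, 4.53 and 4.36, and the HIGH libraries gave 3.03, 3.52 and 4.81, so that every refed library fell below every CON library (exact two-sided permutation p = 0.0119). LOW and HIGH overlapped in this ratio. Because the ratio contains TXNIP, which already separated the same libraries, its p-value restates that separation.

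**Figure D3:**
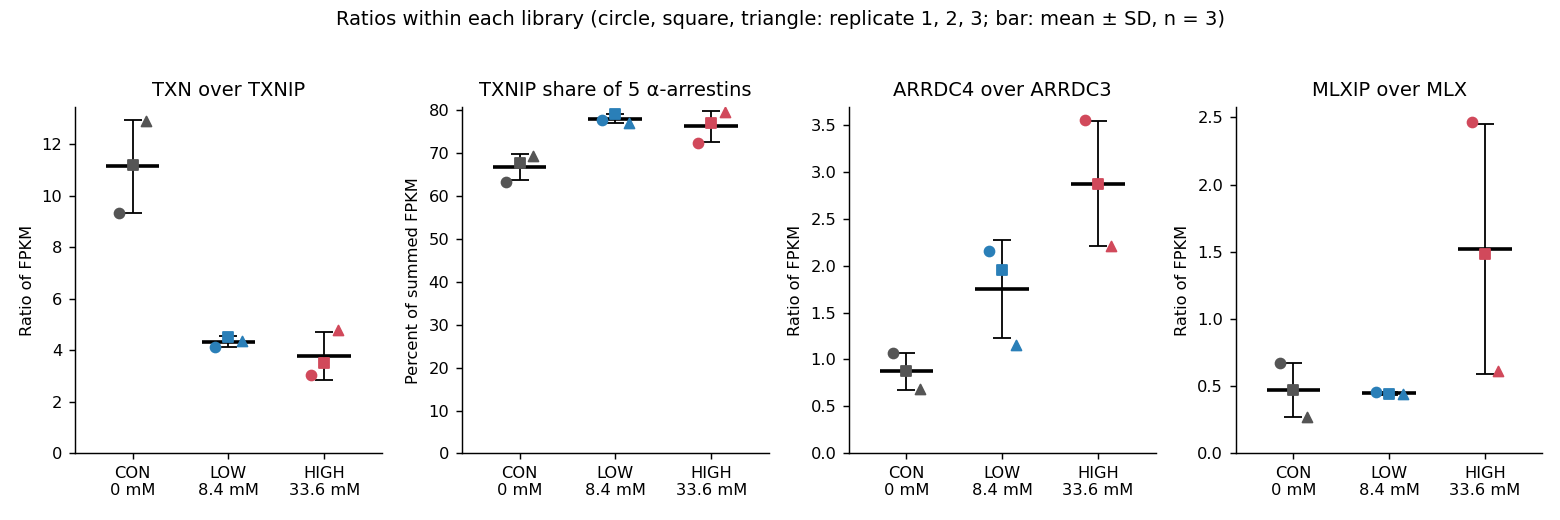
Ratios of FPKM, or percent of the summed FPKM of the 5 α-arrestins, within each library (vertical axes from 0); symbols mark replicates and bars the mean ± SD of 3 libraries. TXN over TXNIP is 9.34 to 12.9 in CON and 3.03 to 4.81 with glucose, ARRDC4 over ARRDC3 steps up without overlap from CON to LOW to HIGH, and MLXIP over MLX reaches 2.47 in HIGH.

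The sensor genes had no call in any comparison by limma or edgeR, and DESeq2 called 1, MLXIP in HIGH versus LOW (adjusted p = 0.0233), where it called 1.41% of all genes. MLXIP, which encodes MondoA, measured 13.9, 10.7 and 6.19 FPKM in CON and 9.14, 8.65 and 9.25 FPKM in LOW. In HIGH it measured 32.0, 23.0 and 12.1 FPKM. The HIGH libraries were above all LOW libraries, but HIGH replicate 3 lay within the CON range, and the spread inside HIGH exceeded the distance between CON and LOW. MLXIP in HIGH was 2.12-fold that in CON (95% interval 1.21 to 3.74; unadjusted p = 0.0144, limma adjusted p = 0.655) and 2.29-fold that in LOW (1.30 to 4.03; unadjusted p = 0.0088, limma adjusted p = 0.573). Of all genes tested, 12.5% lay above LOW without overlap in HIGH and 5.81% above CON, as the 4 stromal markers named above did in both, and 2 genes (0.00821%) were called between these groups. CON and LOW did not separate, with 0.927-fold in LOW and an interval of 0.527 to 1.63.

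MLX, the shared DNA-binding partner, measured 20.6, 22.5 and 22.9 FPKM in CON and 20.0, 19.7 and 20.9 FPKM in LOW. In HIGH it measured 13.0, 15.5 and 19.9 FPKM. Every HIGH value was below every CON value, while HIGH and LOW overlapped at HIGH replicate 3. Its level in HIGH was 0.723 times that in CON (95% interval 0.572 to 0.915; unadjusted p = 0.0122, limma adjusted p = 0.655), a position without overlap that 3.63% of all genes tested also had. MLXIPL, which encodes ChREBP, was 0.190 to 0.235 FPKM across CON, 0.107 to 0.202 across LOW and 0.0861 to 0.182 across HIGH. At this level the pseudocount of 0.1 weighs on its fold change, and its interval for glucose versus CON was wide, at 0.515 to 1.26-fold.

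ARRDC4, TXN and ARRDC2 were ordered by a property of the libraries within every group, and MLXIP, TXNIP, MLX and ARRDC1 within CON and HIGH only. Each library was described by how far its genes with the longest genomic spans (67202.5 bases or more) lay above its genes with the shortest spans (10851 bases or less), as a difference of median log2 deviations. This difference was 0.31, −0.06 and −0.60 in CON, 0.07, −0.13 and −0.04 in LOW, and 0.37, 0.17 and −0.09 in HIGH. MLXIP, with a span of 57413 bases, was ordered in the same way as this difference within CON and within HIGH but not within LOW. TXNIP, MLX and ARRDC1 were in the opposite order within CON and within HIGH but not within LOW. TXN, with a span of 11739 bases, was in the opposite order within all 3 groups, as was ARRDC2, with a span of 3436 bases. ARRDC4, with a span of 6206 bases, was in the same order within all 3. How many of all genes were ordered in these ways was not counted, so these orders only describe the members. The share of small RNA genes in the summed FPKM was 30.3%, 50.7% and 68.2% in HIGH, where MLXIP fell from 32.0 to 12.1, against 52.1% to 68.6% in CON and 67.0% to 72.1% in LOW. With the span difference as a covariate, chosen after the data were seen, the log2 fold change of MLXIP in HIGH versus CON was 0.66 in place of 1.09, and with the small RNA share it was 0.61. TXNIP in HIGH versus CON was 1.40 and 1.38 with the same covariates, and ARRDC4 was 1.22 and 1.18. Beyond these fits, the part of these library properties in the levels of the members was not tested.

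**Figure D4:**
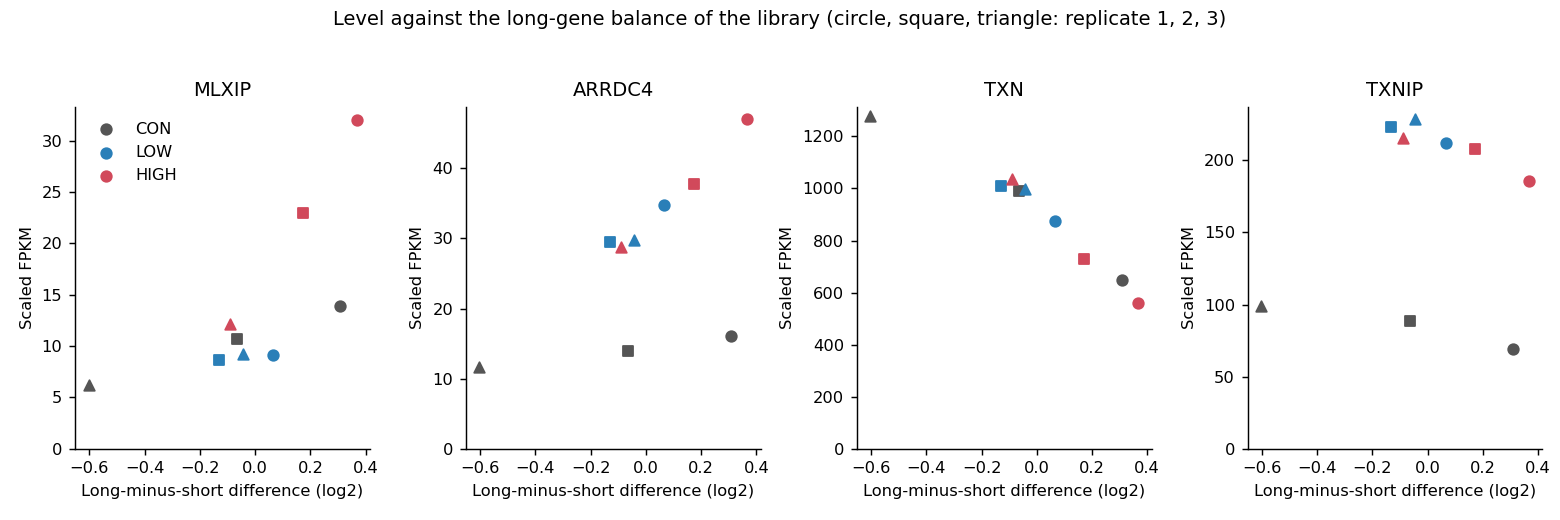
Scaled FPKM of MLXIP, ARRDC4, TXN and TXNIP (vertical axes from 0) against the long-minus-short span difference of each library (horizontal axis, log2), coloured by group with symbols for replicates. TXN falls from 1277 FPKM at a difference of −0.60 to 562 FPKM at 0.37 across all groups, while for TXNIP and ARRDC4 the 3 CON libraries lie below the others at every position.

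A list of 35 genes held to be direct or proposed targets of MondoA or ChREBP, beside TXNIP and ARRDC4, was used to describe other targets. The list was drawn up with earlier results of these data known, so its counts are a description and not a test. Of these, 27 were tested, and none was called in any comparison by limma. At an unadjusted p under 0.05, 4 were higher and 2 lower in glucose versus CON, against 1.54% and 1.09% of all genes tested, and the median log2 fold change was −0.03 beside 0.06 over all genes. PFKFB3, which makes the allosteric activator of phosphofructokinase, measured 4.36, 4.34 and 5.35 FPKM in CON, 8.68, 7.20 and 6.96 in LOW, and 13.3, 10.6 and 9.92 in HIGH. The 3 groups of PFKFB3 did not overlap and stood in the order of glucose concentration, as did those of KLF11 and PDK4, described below. The share of all genes with groups in this order was not counted. The log2 fold change of PFKFB3 was 0.97 ± 0.139 (SE) in glucose versus CON (limma adjusted p = 0.199), rank 7 of 24365 genes by p.

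KLF10 and KLF11, Krüppel-like transcription factors known as early responders to TGF-β, were 2 of the other 3 on the higher side. KLF10 was 4.18 to 4.73 FPKM across CON, 6.85 to 8.35 across LOW and 6.76 to 9.18 across HIGH, with a log2 fold change of 0.79 ± 0.131 (SE; limma adjusted p = 0.421). KLF11 was less abundant, at 0.523 to 0.976 FPKM across CON, 1.43 to 1.63 across LOW and 2.29 to 3.30 across HIGH, with a log2 fold change of 1.25 ± 0.220 (SE; limma adjusted p = 0.461). Both were above CON in 6 of 6 glucose libraries. PDK4, the kinase that restrains pyruvate dehydrogenase, named here after its values were seen, was the fourth, with a log2 fold change of 0.37 (limma unadjusted p = 0.0023).

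Both listed targets on the lower side, SCD and KHK, are metabolic enzymes. SCD, which desaturates fatty acids, was 25.7 to 30.7 FPKM in CON against 20.7 to 22.3 in LOW and 21.2 to 22.2 in HIGH, a log2 fold change of −0.34 (95% interval −0.54 to −0.14; limma adjusted p = 0.942). KHK, the fructose kinase, had a log2 fold change of −0.43. Against CON it was −0.68 in HIGH and −0.17 in LOW. Other listed genes of fatty acid synthesis lay on both sides of 0, with FASN, ACLY, ACACA and ELOVL6 at −0.20, −0.16, −0.03 and −0.10, ACACB at 0.37 and ME1, which supplies NADPH, at 0.30, and all of their intervals included 0. ACACB was 0.180 to 0.276 FPKM across HIGH, above the 0.0510 to 0.127 FPKM of CON and LOW together. FASN was 15.3 to 16.8 FPKM across LOW, below the 19.45 to 22.05 across CON, and 17.8 to 22.4 across HIGH. KHK and these 6 genes were named after their values were seen. PKLR, the liver-type pyruvate kinase often used to read out ChREBP, was at 0.206 FPKM in CON and 0.271 with glucose on average, close to the level of ChREBP itself.

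**Figure D5:**
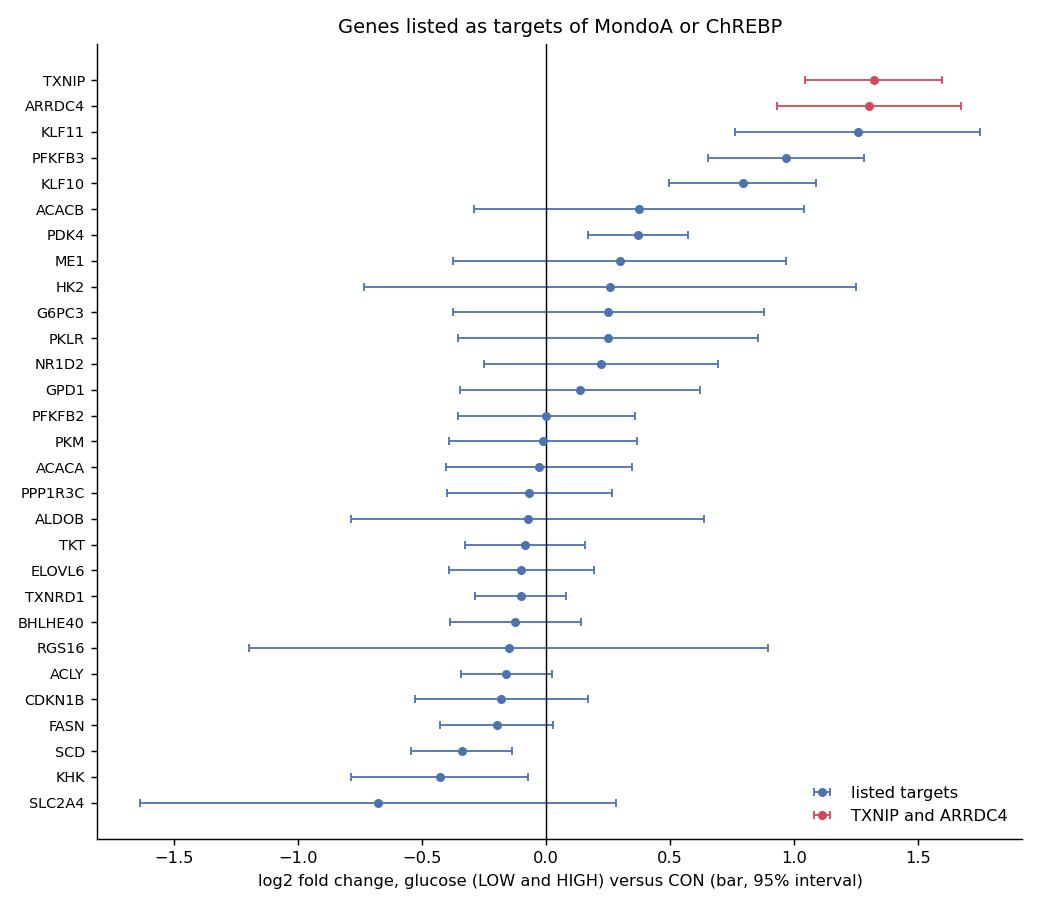
Log2 fold change in glucose (LOW and HIGH averaged) versus CON, with 95% intervals from the limma fit (horizontal axis), for the 27 tested genes listed as targets of MondoA or ChREBP and for TXNIP and ARRDC4. TXNIP (1.32), ARRDC4 (1.30), KLF11 (1.25), PFKFB3 (0.97) and KLF10 (0.79) lie apart from the other listed genes, most of which have intervals that include 0.

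The other lists around the circuit held no call in any of the comparisons by limma. The list around the MLX and MAX network held transcription factors, among them MAX itself and USF2. It had 8 genes tested and none at an unadjusted p under 0.05 in glucose versus CON, with a median log2 fold change of 0.03. MGA, MXI1 and MNT had the smallest p, with log2 fold changes of 0.36, 0.10 and 0.16. MNT, a repressor, gave a log2 fold change of 0.71 in HIGH versus LOW (unadjusted p = 0.0341, limma adjusted p = 0.594). The thioredoxin system had 20 genes tested and none at an unadjusted p under 0.05 in glucose versus CON, with a median of −0.09. Its members with the smallest p included DDIT4, a TXNIP partner that restrains mTORC1, at 4.65 to 6.77 FPKM across CON, 4.57 to 7.31 across LOW and 6.22 to 14.5 across HIGH, and the methionine sulfoxide reductase MSRB1, at 16.8 to 38.5, 14.5 to 27.0 and 12.6 to 17.0 FPKM in the same order.

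A list of α-arrestin partners had 13 genes tested, of ubiquitin ligases, endosomal sorting proteins and the β-arrestins ARRB1 and ARRB2. None had an unadjusted p under 0.05 in any comparison. HGS, WWP2 and PDCD6IP, which had the smallest p in glucose versus CON, had log2 fold changes of −0.16, 0.10 and −0.06. Another list held genes whose proteins α-arrestins are proposed to remove from the membrane. Of its 9 tested genes, 1 was higher at an unadjusted p under 0.05 in glucose versus CON, against 1.54% of all genes tested. This was SLC2A3, a glucose transporter gene, at 0.520 to 1.43 FPKM across CON, 1.15 to 1.47 across LOW and 1.32 to 1.88 across HIGH, a log2 fold change of 0.64 (95% interval 0.02 to 1.26; limma adjusted p = 0.942). SLC2A4, the insulin-regulated transporter gene, was at most 0.234 FPKM, and IGF1R ranged from 7.30 to 41.7 FPKM with groups that overlapped. All 5 lists together had 75 of 93 genes tested, of which 5 were higher and 2 lower at an unadjusted p under 0.05 in glucose versus CON. Over all genes tested the shares were 1.54% and 1.09%. DESeq2 called 2 of the listed genes, KLF11 and PFKFB3, in HIGH versus CON and 1, KLF11, in glucose versus CON, contrasts in which it called 0.731% and 0.542% of all genes, and edgeR called 0 of the listed genes.

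The genes with a pattern most like that of TXNIP were ranked by Pearson r of log2 level over the 9 libraries, among 8707 named genes with at least 1 FPKM in every library. The 9 libraries form refed and glucose-free clusters, so r mainly reads that step and is given only as a measure of likeness. The highest were BNIP3 (r = 0.927), HADHA (0.922), KDELR3 (0.907), ZFP2 (0.903) and AK4 (0.900). BNIP3, a mitochondrial protein of mitophagy, was 29.4 to 39.9 FPKM across CON, 49.5 to 55.5 across LOW and 45.0 to 48.7 across HIGH. ARRDC4 ranked 13 (r = 0.844), while MLXIP (0.161), ARRDC3 (0.0425), TXN (0.0285) and ARRDC1 (−0.0545) had little likeness to TXNIP and MLX had a negative one (−0.423). At the opposite end were SQLE (−0.973) and SCD (−0.970), enzymes of sterol and fatty acid synthesis, then BABAM2, TBC1D2B and TCAIM (−0.900 to −0.878). SQLE was 38.2 to 43.1 FPKM across CON, 31.5 to 33.1 across LOW and 32.6 to 32.9 across HIGH. Of the genes named for likeness, none was called.

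In the transcript table, 6 of the 9 members had a single transcript, so their gene values rested on it. The TXNIP transcript was called in LOW versus CON (log2 fold change 1.38, limma adjusted p = 0.0173), in HIGH versus CON (1.27, 0.0213) and in glucose versus CON (1.33, 0.00846) over 39434 transcripts tested, where calls made up 0.0254%, 0.0279% and 0.033%. The ARRDC4 transcript had limma adjusted p of 0.396, 0.105 and 0.0875 in the same contrasts. The TXNIP gene lay at 1:98336652-98340541 and ARRDC4 at 18:7884509-7890714 in the coordinates of the files, whose genome build is not given in the sources used here. The other α-arrestin members were placed at 3:383853-392307 (ARRDC1), 5:4904024-4907459 (ARRDC2) and 5:88193125-88210301 (ARRDC3), and TXN at 2:13016557-13028295. MLX lay at 11:42132299-42138524, MLXIP at 17:52812869-52870281 and MLXIPL at 24:33537839-33556535. MLXIP was the sum of 5 transcripts, of which the annotated one carried 2.55 to 5.92 FPKM across CON, 3.51 to 4.31 across LOW and 5.17 to 13.7 across HIGH, and 4 were assembled by the study. The gene values of ARRDC1 were split over 8 transcripts, several listed at 0 in some libraries and not in others, so the division of reads among them is uncertain.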

How the data were processed

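RNA-seq was performed on 9 cultures of ovine GCs, 3 each of CON, LOW and HIGH. The labels name TopHat2, HISAT2, STAR 2.5.1b and HTSeq 0.6.0 without a role for each, and the genome build is not given in the sources used here. The authors deposited FPKM per gene and transcript, and estimated counts that equal FPKM times span times a library constant within 3% for the single-transcript genes checked.

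Libraries were scaled on the median of 8539 named genes that reached 1 FPKM in all of them, and unnamed Ensembl genes, which carried a separate library factor, on their own median. Genes with 0.1 FPKM in 3 or more libraries and at least 300 bases of span entered the fit. limma 3.58.1 (R 4.3.3) was fitted to log2(scaled FPKM + 0.1) of all 9 libraries in 1 model, with Benjamini-Hochberg adjustment, because the deposited counts were not independent. Fold changes on this scale understate changes of low genes. edgeR 4.0.16 and DESeq2 1.42.0 were run on the rounded estimated counts as alternatives only. Exact permutation tests (SciPy 1.17.1) were not adjusted. The code was tested on simulated data. The members and lists were chosen with earlier results of these data known. Named genes were the members, the 3 genes of smallest p per list where fewer were called, the 5 most and 5 least like TXNIP, and the 5 named genes of smallest p in glucose versus CON, of which COPS8 (log2 fold change 1.35, limma adjusted p = 0.0349) is not described above. Aromatase was matched as CYP19, its RefSeq symbol.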

Additional observations from a re-analysis of the deposited data

How the results depend on the processing

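Across 11 alternative settings, TXNIP had a log2 fold change of 1.13 to 1.43 and ARRDC4 of 1.07 to 1.42 against CON, always higher, and what changed was the number of members called, which was 1 in LOW versus CON, 0 in HIGH versus CON, 0 in HIGH versus LOW and 1 in glucose versus CON. The LOW count fell to 0 with no filter (TXNIP 1.38, limma adjusted p = 0.0755), with only the compared groups fitted (1.38, 0.195) and with edgeR on the estimated counts (1.35, 0.264). In glucose versus CON it fell to 0 with edgeR (TXNIP 1.24, 0.203). TXNIP in HIGH versus CON passed, for a count of 1, with a filter of 1 FPKM (1.26, 0.0400) or with named genes only (1.26, 0.0442). The count was 2, TXNIP and ARRDC4, in each contrast against CON with either covariate, the replicate block or DESeq2. ARRDC4 was then 1.18 (block), 1.33 (small RNA share), 1.12 (span difference) and 1.16 (DESeq2) in LOW, 1.42, 1.18, 1.22 and 1.34 in HIGH, and 1.30, 1.26, 1.17 and 1.25 for both, and TXNIP in HIGH was 1.26, 1.38, 1.40 and 1.13. DESeq2, which called 132 to 343 genes per contrast where limma called 2 to 5, also called 1 member, MLXIP, in HIGH versus LOW (1.21, adjusted p = 0.0233), 2 listed genes in HIGH versus CON and 1 in glucose versus CON. The cause of these differences was not tested.

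Estimates changed sign only in comparisons where the member was not called under any setting. With the small RNA share as covariate, MLXIP and TXN in LOW versus CON were 0.20 and −0.19, ARRDC1 and TXN in HIGH versus CON 0.21 and 0.035, and TXNIP, ARRDC4, TXN and ARRDC2 in HIGH versus LOW 0.073, −0.15, 0.22 and 0.048. With the span difference, ARRDC1 and TXN in HIGH versus CON were 0.19 and 0.013, and 0.031 and 0.075 in glucose versus CON, and ARRDC2 in HIGH versus LOW was 0.0025. TXN in LOW versus CON was −0.077 on FPKM as deposited, −0.052 by edgeR and −0.062 by DESeq2. ARRDC2 in HIGH versus CON was −0.0022 with a pseudocount of 1, −0.085 as deposited, −0.17 by edgeR and −0.16 by DESeq2, and in glucose versus CON −0.022, −0.036 and −0.038 by the last 3.

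Leaving out each library in turn, the members called ranged from 0 to 1 in LOW versus CON, 0 to 1 in HIGH versus CON and 0 to 2 in glucose versus CON. TXNIP ranged from 1.24 to 1.495 in LOW versus CON, 1.11 to 1.37 in HIGH versus CON and 1.18 to 1.43 in glucose versus CON, and ARRDC4 from 1.25 to 1.60 in HIGH versus CON and 1.18 to 1.41 in glucose versus CON. Ranges that crossed 0 in LOW versus CON were −0.041 to 0.37 for ARRDC2, −0.032 to 0.35 for ARRDC3, −0.43 to 0.15 for MLXIP and −0.23 to 0.26 for TXN. In HIGH versus CON they were −0.22 to 0.086 for ARRDC1 and −0.19 to 0.22 for ARRDC2, and in glucose versus CON −0.31 to 0.0034 for ARRDC1, −0.12 to 0.30 for ARRDC2, −0.16 to 0.033 for ARRDC3 and −0.40 to 0.085 for TXN. In HIGH versus LOW they were −0.033 to 0.29 for ARRDC1 and −0.22 to 0.13 for MLXIPL, and ARRDC3 ranged from −0.63 to −0.25.

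Whether replicate numbers pair the samples could not be settled from the libraries. Deviations were taken from the group means, so the values for the different numbers are not independent of each other. Deviations of same-numbered libraries correlated at 0.35 to 0.65 for number 1 and 0.19 to 0.66 for number 3, but at −0.08 to 0.01 for number 2, and not every library correlated best with its own number. Each member had 1 row, so summing rows changes nothing. Transcript calls of TXNIP were also made with a pseudocount of 1. MLXIPL was not tested with the filter of 1 FPKM, and at under 0.25 FPKM its differences are limited by depth.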
